A study of Mus musculus with 4 samples.

Results

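Of 9297 polyA sites counted in the CA1 neuropil of mouse hippocampus, 323 had at least 1 tag in both library 3 and library 4 and no tag in library 1 or library 2. These counts chose the sites, so every tag value given for them is a description and carries no test. The rule called 3.47% of all sites, and its mirror image (tags in both libraries 1 and 2, none in 3 or 4) called 405 sites, or 4.36%. A further 456 sites had tags in all 4 libraries.

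All 4 libraries came from one group, C57BL/6 mice of the genotype Camk2a-Cre x Pabpc1- cTag, and no second group was used here. Each replicate was a pool of several mice, from adult animals by the study's reference to its methods for related assays. In these mice Cre recombinase, expressed from the Camk2a promoter in excitatory neurons, switches on a GFP tag on the cytoplasmic poly(A)-binding protein Pabpc1. The neuropil layer was microdissected from hippocampal slices after ultraviolet crosslinking, and RNA bound to the tagged protein was recovered through GFP and sequenced as short tags (cTag-PAPERCLIP). Per the study's methods, low-input samples were pooled after barcoding.

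The 3′ end of an mRNA is made by cleavage of the nascent transcript downstream of a polyA signal, most often AATAAA or ATTAAA, and addition of a poly(A) tail. Poly(A)-binding proteins coat that tail, so tags crosslinked to Pabpc1 lie at the junction of the 3′UTR and the tail, and a gene with several sites can give mRNAs with 3′UTRs of different length. 7SL RNA, the RNA of the signal recognition particle, targets ribosomes to the endoplasmic reticulum. It is transcribed by RNA polymerase III and its end is not made through a polyA signal. The B1 repeats of rodents and the Alu repeats of primates are short interspersed elements that descend from 7SL RNA.

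Library 1 held 16017 tags at the listed sites, library 2 held 6609, library 3 held 5947 and library 4 held 6099. A site with 0 tags could therefore still have a share of up to 0.0187% of the tags in library 1 and of up to 0.0454% in library 2. Of a list of 10 pyramidal neuron markers, 8 were named in the table, and their sites took 0.431%, 0.424%, 0.235% and 0.394% of the tags of libraries 1 to 4. Blood and vessel markers took 0.0312%, 0.56%, 1.28% and 0.148%, and oligodendrocyte markers 0.287%, 0.545%, 0.185% and 0.131%. Astrocyte markers took 0.287%, 0.151%, 0.168% and 0.0984%, interneuron markers 0.0687%, 0.0908%, 0.219% and 0.295%, and microglia markers 0.0187%, 0%, 0.0168% and 0%. The pyramidal list was thus not the highest in libraries 2 and 3. Sites resembling Bc1, a short noncoding RNA of dendrites, took 32.9% and 11.8% of the tags of libraries 1 and 2 and 2.59% and 2.07% of libraries 3 and 4, and no such site was among the 323. Tags copied by PCR are not independent molecules, so all limits and intervals below cover counting error only.

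The sites with the most tags shared a resemblance to the 3′ end of mouse 7SL RNA (Rn7s1 in GENCODE vM21). A stretch of 30 bases from that end was compared with every site. A site was called 7SL-like when some stretch within 50 bases on either side of it, on its strand, matched with at most 8 edits (substitutions, insertions or deletions). The stretch was placed by the 8-base word whose share at the 323 sites most exceeded its share at all other sites. The measure was thus fitted to the contrast between the 323 sites and the rest, after their sequences had been seen. Differences in it between these sets are in part set by that choice, so no test was made of it. Repeats that descend from 7SL RNA can match too, and the RNA that these tags came from, its species included, was not tested. The gene names of the sites are those in the deposited table, and 12 of the 62 7SL-like sites lay in the gene of their name, against 203 of the other 261.

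By this measure 62 of the 323 sites were 7SL-like, 19.2% of them (95% Wilson interval 15.3% to 23.8%), against 147 sites, or 1.58%, of the whole table. None of the 405 sites of libraries 1 and 2 only was 7SL-like, which by the limit of 3 counts allows a share of up to 0.741% (upper Wilson limit 0.94%). None of the 456 sites seen in all 4 libraries was either, which allows up to 0.658% (upper Wilson limit 0.835%). The 62 sites lay on 20 chromosomes, 35 on the plus strand and 27 on the minus strand, and needed 2 to 8 edits with a median of 6. The match began a median of 16 bases upstream of the listed base (quartiles 17 and 14), so the listed base fell inside the matching stretch at most of them. In the reference genome 27 of the 62 matches were wholly soft-masked as repeat, 31 in part and 4 not at all.

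**Figure D1:**
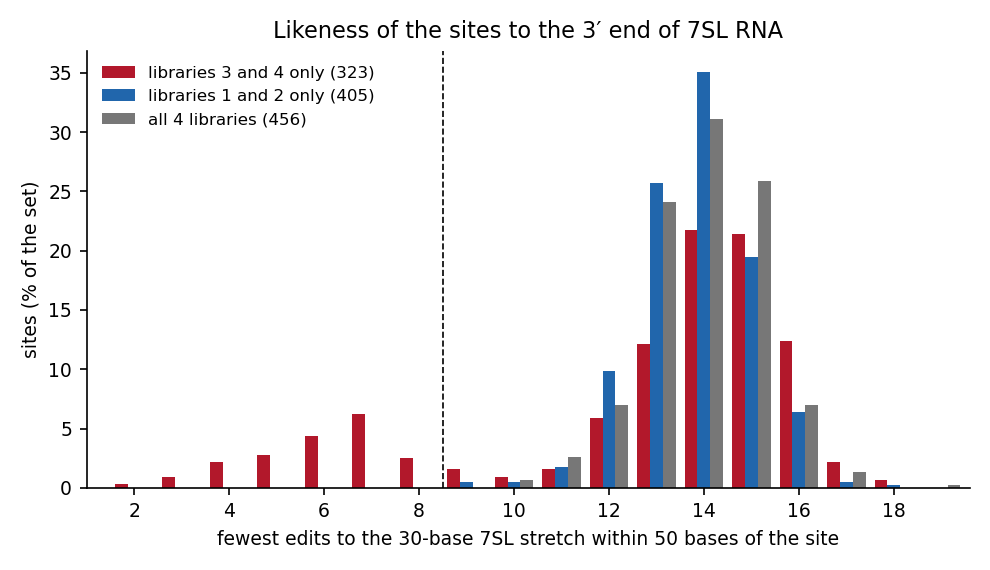
The horizontal axis is the fewest edits between the 30-base 7SL stretch and any stretch within 50 bases of a site, and the vertical axis is the percentage of sites in each set. The 323 sites of libraries 3 and 4 only (red) form a second hump at 2 to 8 edits, left of the dashed line, where the 405 sites of libraries 1 and 2 only (blue) and the 456 sites of all 4 libraries (grey) have none. The stretch was fitted to the 323 sites.

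Every 7SL-like site of the table, whatever its pattern, was then counted in each library. The 147 sites had 10 tags in library 1, 12 in library 2, 469 in library 3 and 520 in library 4. As shares of the library these were 0.0624% (95% Wilson interval 0.0339% to 0.115%), 0.182% (0.104% to 0.317%), 7.89% (7.23% to 8.6%) and 8.53% (7.85% to 9.25%). The 62 chosen sites are part of these counts, and the rule itself sets them at 0 in libraries 1 and 2. The 85 sites that the rule did not choose held 10, 12, 147 and 89 tags in libraries 1 to 4, which is 0.0624%, 0.182%, 2.47% and 1.46% of the tags of each library. Outside the 323, libraries 3 and 4 were thus above libraries 1 and 2 in share of tags, with library 3 above library 4. In library 4 most of these tags were at 4 sites that missed the rule by 1 tag in library 1. They are named Notch2, Cntnap2, Rragc and Mir182 and had 32, 23, 15 and 12 tags in library 4, and 26, 9, 13 and 18 in library 3. The value for library 4 is therefore not separate from the pattern that the rule chose.

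These 85 sites were spread differently over libraries 3 and 4. Library 3 had its 147 tags at 62 of them and library 4 its 89 tags at 11. Of the sites seen in library 3 alone, 56 of 1582 (3.54%) were 7SL-like, against 7 of 1200 (0.583%) of those seen in library 4 alone, 5 of 2325 (0.215%) in library 1 alone and 11 of 1007 (1.09%) in library 2 alone. All 22 tags at 7SL-like sites in libraries 1 and 2 were at 22 different sites.

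**Figure D2:**
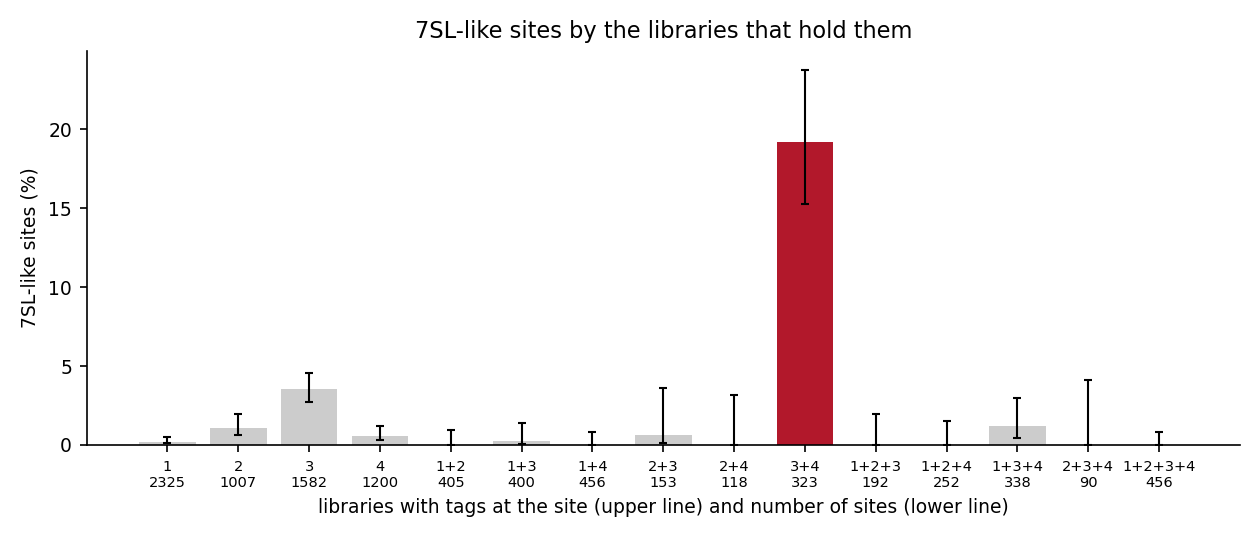
The horizontal axis gives the 15 combinations of libraries with tags at a site, with the number of sites under each, and the vertical axis the percentage of those sites that were 7SL-like, with 95% Wilson intervals. The sites of libraries 3 and 4 only (red) stand at 19.2%, and the next highest, the sites of library 3 alone, at 3.54%. The 7SL stretch was fitted to the sites of libraries 3 and 4 only.

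The 7SL-like sites carried the highest counts among the 323. They held 322 of the 732 tags that library 3 had at these sites and 431 of the 814 tags of library 4, which is 48.7% of all 1546 tags at 19.2% of the sites. Their median was 6 tags over both libraries, against 2 for the other 261 sites, and 17 of the 22 sites with at least 10 tags were 7SL-like.

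The site named Gpihbp1 was the highest, with 42 tags in library 3 and 78 in library 4, or 0.706% and 1.28% of the library. It lay 4.43 kb past the 3′ end of Gpihbp1, which encodes the protein that carries lipoprotein lipase across capillary endothelium, in no annotated gene on its strand. The site named Tas1r2, a subunit of the sweet taste receptor, had 34 and 52 tags and lay 324 kb from the end of that gene. The site named Tmem270 had 18 and 36 tags, 146 kb from its gene. Thus the 3 highest sites were all between genes, and all 3 had more tags in library 4.

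The site named Cybrd1, after a duodenal ferric reductase, had 17 and 19 tags and lay 4.55 kb past the gene. The site named Ppp4r2, a regulatory subunit of protein phosphatase 4, had 11 and 24 tags in an intron of Gm43948, 264 kb from Ppp4r2. The site named Ankrd27 had 14 tags in each library and lay 92.7 kb from its gene. The site of Nf1 lay in the gene of its name, in an intron (neurofibromin is a negative regulator of Ras), and had 10 and 14 tags. The site named Acss2 had 6 and 16 tags in an exon of the noncoding gene Gssos2, and the site named Xkr5 had 10 tags in each library, 70.2 kb from the gene.

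Neuronal gene names among the highest sites were of the same kind. The site named Npy, neuropeptide Y of a class of interneurons, had 6 and 11 tags and lay 103 kb past that gene, and the 13 and 18 tags of the interneuron marker list in libraries 3 and 4 include them. The site named Lgi1, a secreted synaptic protein, had 9 and 8 tags 70.7 kb from its gene, and the site named Elavl4, a neuronal RNA-binding protein, had 3 and 7 tags 151 kb from its gene. All 3 were 7SL-like, and none lay in the gene it is named after. The remaining 7SL-like sites of the 25 highest, named Cox14, G630093K05Rik, Mir691, Zmynd11, Ccdc42os, 9230117E06Rik and Timd4, had 4 to 8 tags in library 3 and 3 to 10 in library 4. They lay 61.1 kb (9230117E06Rik) to 1016 kb (Mir691) from the genes they are named after.

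Over the 25 sites with the highest mean share of tags in libraries 3 and 4, which held 42.9% of the tags at the 323 sites, 19 were 7SL-like, 18 lay between genes, 2 lay in a 3′UTR, and 20 lay over 10 kb from the end of the named gene.

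**Figure D3:**
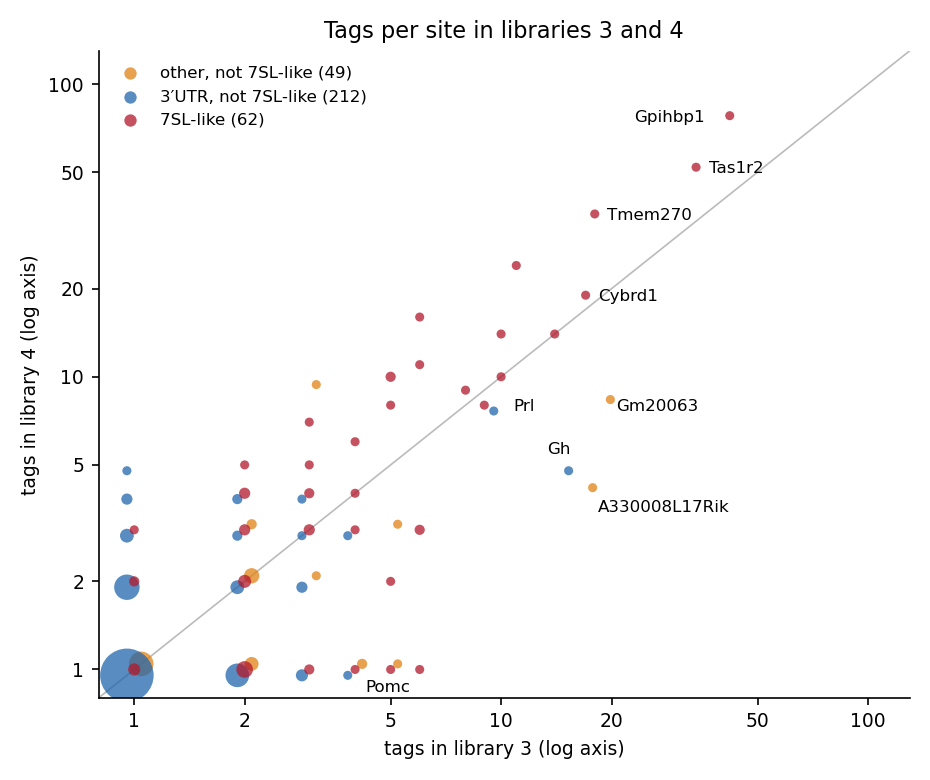
Each point is a pair of tag counts in library 3 (horizontal) and library 4 (vertical), on log axes, for the 323 sites, with larger points where more sites share the pair. Points of the 3 kinds are set slightly apart along the diagonal so that they can be seen. The 7SL-like sites (red) hold the highest counts in both libraries, Gpihbp1 at 42 and 78, while most 3′UTR sites (blue) sit at 1 tag in each.

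The rule has a threshold of 1 tag, and 158 sites were just inside it with a single tag in each of libraries 3 and 4. Just outside it were 227 sites with tags in both libraries 3 and 4 and 1 tag in library 1 or 2, in library 1 at 167 and in library 2 at 60. They had a median of 3 tags in libraries 3 and 4, as the 323 did. The highest of them was an intron site of Notch2 with 1, 0, 26 and 32 tags in libraries 1 to 4, which was 7SL-like, as were the sites named Cntnap2 (1, 0, 9 and 23), Mir182 (1, 0, 18 and 12) and Rragc (1, 0, 13 and 15). These 4 were the only 7SL-like sites among the 227.

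The features that the rule did not use were compared with the sites of libraries 1 and 2 only and with the sites of all 4 libraries, in a family of 7 Fisher's exact tests (two-sided, Benjamini-Hochberg adjusted). Of the 323 sites 322 lay on assembled chromosomes and entered these tests. Sites are not independent replicates, since some share a gene or a repeat, so the p-values describe these lists of sites and not the mice. The 3′UTR is the exon sequence after the stop codon in GENCODE vM21, and the signal was AATAAA or ATTAAA on the strand of the site within 50 bases on either side, which 78.1% of all sites held.

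A 3′UTR held 213 of the 322 sites (66.1%), against 349 of the 405 sites of libraries 1 and 2 only (86.2%), a difference of -20 percentage points (95% interval -26.2 to -13.8, Fisher's exact test, adjusted exact p = 2.37e-10). A further 81 lay between genes, 24 in introns and 4 in exons of noncoding genes. A polyA signal was present at 218 (67.7%) against 334 (82.5%), a difference of -14.8 points (-21.1 to -8.46, adjusted exact p = 5.83e-06). An annotated transcript end on the strand lay within 100 bases of 180 (55.9%) against 317 (78.3%), a difference of -22.4 points (-29 to -15.5, adjusted exact p = 2.37e-10). The sites of libraries 3 and 4 only thus had each of these 3 features of an mRNA 3′ end less often.

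With at least 2 tags in each library the differences from the mirror set were wider, at -59.3 points for the 3′UTR, -45.7 for the signal and -56.7 for the transcript end, over 73 and 75 sites (adjusted exact p = 3.02e-13, 1.8e-08 and 5.78e-12). With the signal sought upstream only, its difference was -8.15 points (20.5% against 28.6%, adjusted exact p = 0.0175). The whole signal then had to end at or before the listed base. The nearest signal began a median of 1 base upstream of that base at the chosen sites. This setting therefore leaves out signals that overlap or follow the listed base.

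The differences from the 456 sites of all 4 libraries were larger, at -29.5 points for the 3′UTR (adjusted exact p = 2.47e-27), -21.6 for the signal (adjusted exact p = 3.71e-13) and -32.3 for the transcript end (adjusted exact p = 8.4e-24). Those sites also had more tags, with a median of 11.5 against 3.

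Without library 1 or without library 2 the mirror set is made of sites of the 1 remaining library, and the comparison with it changed. The 3′UTR difference was 5.21 points without library 1 (adjusted exact p = 0.0142, turned in direction) and -2 without library 2 (adjusted exact p = 0.467). The transcript-end difference was 4.21 and 0.521 points (adjusted exact p = 0.0763 and 0.871), and the signal difference without library 1 was -2.62 points (adjusted exact p = 0.184). The 3 differences from the sites seen in all libraries kept their direction and their call whichever library was left out, but not their size. Without library 1 they were -16.3 points for the 3′UTR, -11.5 for the signal and -18.1 for the transcript end, and without library 3 they were -19.6, -12.6 and -28.1.

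The 7SL-like sites had few of these features. Of the 62, 45 lay between genes, 15 in introns, 1 in a noncoding exon and 1, in Ktn1, in a 3′UTR, 14 (22.6%) had a polyA signal, and none lay within 100 bases of a transcript end. With 7SL-like sites left out, a choice made after the data were seen, the difference from the mirror set was -4.63 points for the 3′UTR (95% interval -10.6 to 0.999, adjusted exact p = 0.176), -4.01 for the signal (-10.4 to 2.06, adjusted exact p = 0.263) and -9.04 for the transcript end (-16 to -2.24, adjusted exact p = 0.0182), so the first 2 no longer passed the test. The mirror set held none of these sites but 15 Bc1-like ones. The 7SL-like label was fitted to the chosen sites and removed sites from them alone. The change thus follows from the features of those 62 sites and describes them. With Bc1-like sites left out of both sets too, the difference was -7.95 points for the 3′UTR (adjusted exact p = 0.00703), -7.18 for the signal (adjusted exact p = 0.023) and -12.1 for the transcript end (adjusted exact p = 0.000823). The differences from the 456 sites of all 4 libraries also shrank without 7SL-like sites, to -14.1 points for the 3′UTR (adjusted exact p = 9.57e-09), -10.8 for the signal (adjusted exact p = 0.000384) and -18.9 for the transcript end (adjusted exact p = 8.33e-09), and all 3 still passed the test. Among 3′UTR sites only, the signal was as frequent in both sets, at 182 of 213 (85.4%) and 298 of 349 (85.4%), a difference of 0.0592 points (-6.25 to 5.86, adjusted exact p = 1).

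**Figure D4:**
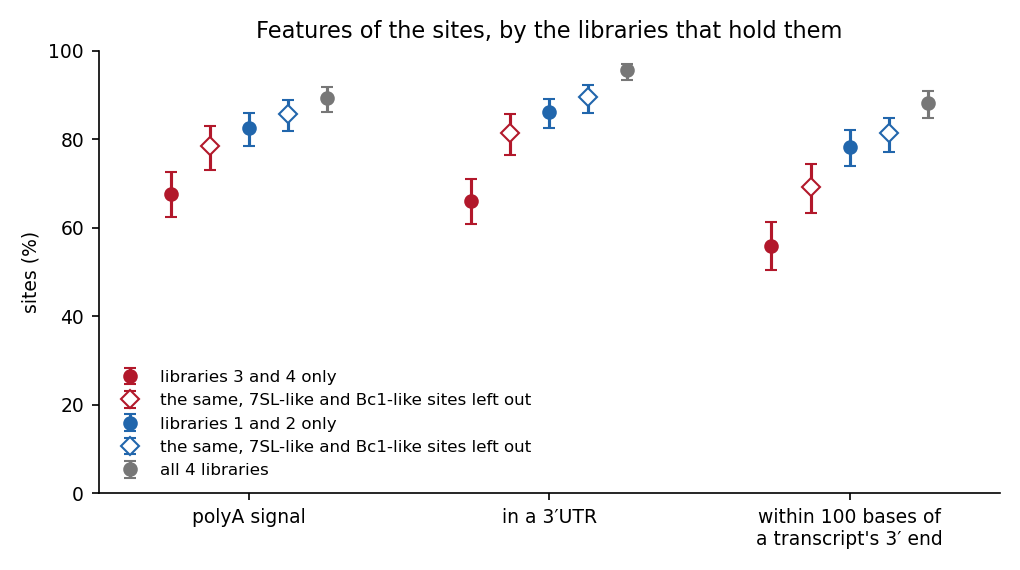
The vertical axis is the percentage of sites with each of 3 features, with 95% Wilson intervals, for sites of libraries 3 and 4 only (red), of libraries 1 and 2 only (blue) and of all 4 libraries (grey). Open diamonds leave out 7SL-like and Bc1-like sites, which raises the red points from 67.7% to 78.5%, from 66.1% to 81.5% and from 55.9% to 69.2%.

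The 7SL-like sites were chosen by their sequence, so their base composition and repeat content are in part set by that choice and are given as a description. Within 100 bases on either side, the median GC content was 45% at the 7SL-like sites (quartiles 40.4% and 50.2%) and 35.6% at the other 261 (31.3% and 42.3%). It was 41.3% at the sites of libraries 1 and 2 only and 39.8% at those of all 4 libraries. The median soft-masked share was 43% at the 7SL-like sites and 22.1% at the other 261.

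Outside the 7SL-like sites, 212 sites lay in 3′UTRs and held 594 tags, 293 in library 3 and 301 in library 4. Most were at the lowest counts that the rule admits, with 129 (60.8%) at 1 tag in each library and 17 at 5 tags or more. Of the 212, 178 (84%) lay within 100 bases of an annotated transcript end and 182 (85.8%) had a polyA signal. Over all 261 sites that were not 7SL-like, 180 lay within 100 bases of an annotated end, 174 of these at or upstream of it, a median of 21 bases upstream.

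The 2 highest of the 3′UTR sites were at genes of pituitary hormones. Gh, growth hormone, had no tag in libraries 1 and 2, 16 in library 3 and 5 in library 4 at its 1 listed site, 12 bases upstream of the annotated transcript end. Prl, prolactin, had 0, 0, 10 and 8 at its 1 site. Pomc, the precursor of corticotropin and the melanocortins, had 0, 0, 4 and 1. Their polyA signals are shown in capitals, each at its own site, with that of Atp6v0b, a subunit of the vacuolar proton pump (3 and 4 tags), as an example of the other 3′UTR sites.
Gh: gcgctttgtcctAATAAAattaagatgcat
Prl: ctcctcttaaatAATAAAaacaaactttaa
Pomc: cctgtgttaggaAATAAAacctttcagatt
Atp6v0b: tagtgtttgtgaAATAAActtggtatttgt

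These lie at chr11:106300272-106300301 (minus strand), chr13:27065155-27065184 (plus), chr12:3960544-3960573 (plus) and chr4:117884334-117884363 (minus) in GRCm38. Of 7 pituitary hormone genes, a list written after Gh, Prl and Pomc had been seen, 4 were named in the table, and the fourth, Cga, the common subunit of the glycoprotein hormones, had 1 tag in library 3. Tshb, Lhb and Fshb were not named. Together the 4 genes had 0, 0, 31 and 14 tags, or 0.521% and 0.23% of libraries 3 and 4. What part pituitary RNA has in these counts was not tested.

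**Figure D5:**
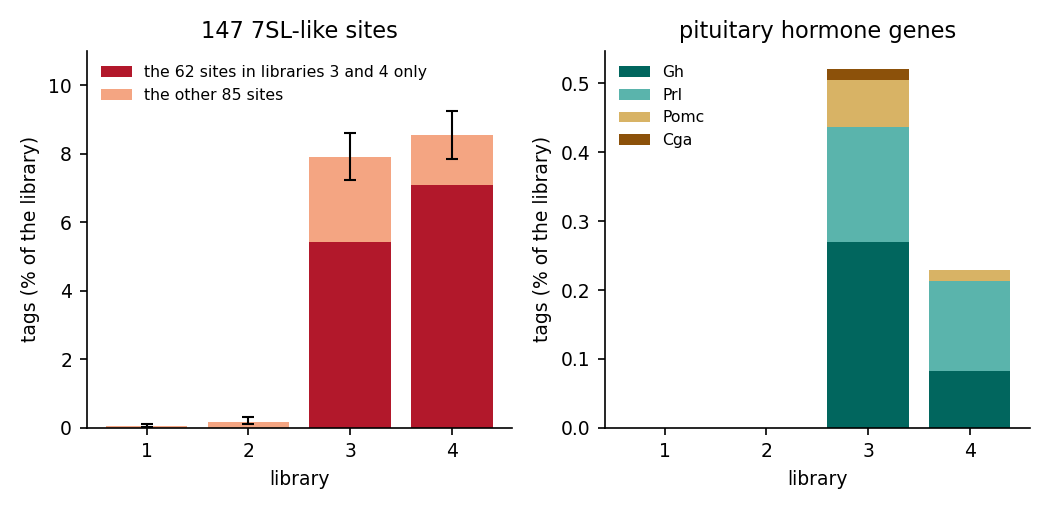
Left, the share of each library's tags at the 147 7SL-like sites of the table, split into the 62 sites of libraries 3 and 4 only (red) and the other 85 (light), with 95% Wilson intervals of the total. Right, the share at the sites of 4 pituitary hormone genes, stacked by gene. Libraries 3 and 4 stand at 7.89% and 8.53% on the left. The light part of these, 2.47% and 1.46%, is at sites that the rule did not choose. In library 4 most of the light part is at 4 sites that missed the rule by 1 tag in library 1. On the right libraries 3 and 4 stand at 0.521% and 0.23%, and libraries 1 and 2 have no tags.

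The other 3′UTR sites with 5 tags or more had 1 to 5 tags in a library. Nlgn2, the neuroligin of inhibitory synapses, had 4 and 3 tags, and Ntrk3, the receptor of neurotrophin 3, had 3 in each. Rragd, a Rag GTPase that relays amino acid signals to mTORC1, had 2 and 4, as did Ensa, an inhibitor of protein phosphatase 2A, and its relative Arpp19 had 1 and 5. Rbbp7 (a histone-binding protein), Rsrp1 and Ubxn1 had 3 and 2 each, Nufip2 and Tmem259 had 2 and 3 each, and Hprt (a purine salvage enzyme), Lingo1 and Pea15a had 1 and 4 each.

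Several of these genes had tags in libraries 1 and 2 at another site. Arpp19 had 1, 1, 5 and 11 tags in libraries 1 to 4 at the site downstream of its chosen one, chr9:75058057 against chr9:75057530. Lingo1, on the minus strand, had 2 and 1 tags in libraries 1 and 2, and none in 3 and 4, at chr9:56618491, downstream of its chosen site at chr9:56619127. Pea15a had 1 tag in library 1 and 1 in library 3 at chr1:172196750, downstream of its chosen site at chr1:172197472. Ensa had 2 tags in library 1 at chr3:95632092, downstream of chr3:95630468. In all 4 genes the chosen site was thus the upstream one, with the shorter 3′UTR, and each rests on 6 or fewer tags.

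Over the whole set both orders occurred. Of the 3′UTR sites, 39 had another site of the same name with tags in library 1 or 2 within 10 kb on the strand. The chosen site was upstream of all of them at 23 (59%), downstream at 11 and between at 5. At the mirror sites, which were compared with sites seen in library 3 or 4, it was upstream at 36 of 67 (53.7%), downstream at 28 and between at 3.

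For 90 of the 322 sites (28%) the name had tags in library 1 or 2 at some other site, against 95 of 405 (23.5%) for the mirror set, a difference of 4.49 points (95% interval -1.86 to 10.9, Fisher's exact test, adjusted exact p = 0.171). The libraries searched for the other tags differ in depth between the sets. With vM21 gene names the difference was -3.61 points (adjusted exact p = 0.232). Without library 1 it was -11.2 (adjusted exact p = 8.01e-09) and without library 2 -5.66 (adjusted exact p = 0.024). Without library 3 it was 14.2 (adjusted exact p = 2.51e-12) and without library 4 16.5 (adjusted exact p = 1.32e-17), so its direction depended on which library was left out.

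Among the sites whose name had such other tags, the 12 with the most tags were those named Ppp4r2, Nf1, A330008L17Rik, Cox14, Lgi1, Npy, Mir691, Zmynd11, Elavl4, Gatd1, Oxa1l and Ensa. The first 10 had at least 7 tags, and of these 9 were 7SL-like, 1 (Nf1) lay in the gene of its name and all 10 lay over 10 kb from the end of that gene. Oxa1l and Ensa were in a tie of 7 sites at 6 tags, with Arpp19, Basp1, Rac1, Rragd and Ypel1, and were taken by the higher of the lower counts and then by name. Of these 7 sites, 3 were 7SL-like, 4 lay in the gene of their name and 3 lay over 10 kb from its end. Nf1 had 2 and 1 tags in libraries 1 and 2 at its 3′UTR site at chr11:79581591 and none there in libraries 3 and 4, whereas its intron site had 10 and 14 tags in libraries 3 and 4. The site is 85 kb upstream of the end of the gene.

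The remaining 49 sites were neither 7SL-like nor in a 3′UTR and held 199 tags. A run of at least 12 A on the strand of the site, within 50 bases, was present at 20 of them. Such a run was present at 30 of all 323 sites (9.29%) and at 11.3% of the whole table. It was present at 7.41% of the sites of libraries 1 and 2 only and at 2.85% of those of all 4 libraries. The 323 sites were thus below the table and above both comparison sets. Of the 1051 sites of the table with such a run, 385 were sites of library 3 alone. The 2 highest of these sites were named Gm20063, with 19 and 8 tags and a run of 35 A, and A330008L17Rik, with 17 and 4 tags and a run of 38 A. Both lay between genes, 1845 and 1413 kb from the genes of their names. A330008L17Rik had 23 tags in library 1 at its other listed site. Of the 49, 10 needed 9 to 11 edits to the 7SL stretch, among them the sites named Mir592, in an intron of Grm8, with 3 and 9 tags, and Ppie, with 5 and 3.

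Counted over gene families, the chosen sites that lay in the gene of their name were 215 of 7062 such sites of the table (3.04%), against 325 (4.6%) for the mirror pattern. None of these was named for a ribosomal protein gene (0 of 37 sites, which allows up to 8.11%), whereas 5 of the 37 had the mirror pattern. By position, however, 2 chosen sites lay at genes whose symbols are on this list. The site named Snord83b, with 1 tag in each library, lay in the 3′UTR of Rpl3, a protein of the large ribosomal subunit, 11 bases from an annotated end of that gene and with a polyA signal. The site named Plet1os, with 3 and 1 tags, lay 36 bases from an annotated end of Rpl10-ps3, a ribosomal protein pseudogene, with a polyA signal and a run of 29 A within 50 bases. Respiratory chain and ATP synthase genes had 0 of 66 (up to 4.55%) against 6, and translation factors 0 of 47 (up to 6.38%) against 1. Of the 27 sites of the genes the study examined by in situ hybridization none was chosen (up to 11.1%), and none of 13 sites of pyramidal neuron markers (up to 23.1%) or 15 of immediate early genes (up to 20%). All these limits lie above 3.04%, so at this number of sites none of the lists can be told from the table as a whole.

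The other lists had at most 8 chosen sites each, and no test was made of any list. Ubiquitin system genes had 8 of 243 sites (3.29%, mirror pattern 4.12%), against 3.04% (mirror pattern 4.6%) over all sites in the gene of their name. Ion channels and pumps had 5 of 121 (4.13%, mirror 1.65%), proteasome and chaperone genes 4 of 87 (4.6%, mirror 6.9%) and cell adhesion genes 4 of 108 (3.7%, mirror 5.56%). Actin and its regulators had 3 of 67 (4.48%, mirror 4.48%) and motor proteins 2 of 52 (3.85%, mirror 1.92%). RNA-binding proteins had 3 of 183 (1.64%, mirror 3.83%), G protein signaling 2 of 171 (1.17%, mirror 7.6%) and protein kinases 1 of 150 (0.667%, mirror 4%). Postsynaptic scaffolds had 1 of 91 (1.1%, mirror 6.59%) and solute carriers 1 of 117 (0.855%, mirror 1.71%). Examples in a 3′UTR were Kcnj4, an inwardly rectifying potassium channel, with 1 and 2 tags in libraries 3 and 4, the chaperonin subunit Cct2 with 2 and 1, and the heavy chain of cytoplasmic dynein, Dync1h1, with 2 and 1. Of the 5 channel sites 2 were 7SL-like intron sites, those of the cation channel Trpc5 (2 tags in each library, 269 kb from the end of the gene) and the chloride channel Ano1 (2 and 1 tags). Cnih3, an auxiliary subunit of AMPA receptors, had 4 and 1 tags at an intron site that was 7SL-like.

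Libraries 3 and 4 had the same number of tags at 184 of the 323 sites, library 3 more at 67 and library 4 more at 72. The 7SL-like sites took 5.41% of library 3 and 7.07% of library 4, and the other 261 sites 6.89% and 6.28%.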

How the data were processed

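Tags of 4 neuropil cTag-PAPERCLIP libraries of 1 group were analysed. The authors deposited whole-number tag counts, not normalized, for single-base polyA sites, each with its strand and the name of a gene. In the study's methods, CTK called polyA sites as clusters of tags mapped to the genome. The methods describe such sites from whole hippocampus and from microdissected tissue. Which of these data the listed sites were called from was not examined here. The submitters' processing notes name cutadapt, Novoalign and mm10, without versions. How tags that match several places were placed is not given in the sources used here, and a tag in a repeated sequence can be counted at any of its copies, so a count at a 7SL-like site does not locate the RNA. All 9294 sites on assembled chromosomes fit the lengths of the GRCm38 chromosomes.

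Windows of sequence came from GRCm38, and classes, transcript ends and the Rn7s1 sequence from GENCODE vM21. Edits to the 7SL stretch were counted with edlib 1.3.9.post1, with Python 3.11.15 and pandas 2.3.3. Shares are in percent of a library's tags. Wilson intervals and limits for 0 tags (3 counts) are at 95%, and intervals of differences are Newcombe's. Fisher's exact tests used scipy 1.17.1 and an adjusted threshold of 0.05. The tests were tried on simulated data. Bc1-like sites had within 75 bases no fewer than 10 words of 12 bases from the first 74 bases of Bc1. The text names the 25 sites with the highest mean share of tags in libraries 3 and 4, the 12 with the most tags among those whose name had tags in library 1 or 2 elsewhere (ties in both by the lower of the 2 counts, then by name), and up to 4 members of each gene family. For sequences the rule was the 12 highest of the first list off chromosome 18. Of these, Gh is shown, those matching 7SL RNA are not reported here, and 2 runs of A are given by their length. Other genes, and the sequences of Prl, Pomc and Atp6v0b, were picked after their values were seen. The members and lists were chosen with earlier results of these data known. Libraries have no labels that would group 1 with 2 or 3 with 4, so these pairs are patterns of the counts, not conditions.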

Additional observations from a re-analysis of the deposited data

Results flagged for a closer look

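Library 1 stood apart in depth. Its 16017 tags compare with 5947 to 6609 in the other libraries, and its gap to the nearest of them was 0.934 of the whole range, above Dixon's critical value for 4 samples. It was the only flag among 34 results checked in this way, among them the shares of the highest sites in each library. Chance flags about 1 in 20, or 1.7 of the 34, so 1 flag is no more than chance gives.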

How the results depend on the processing

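The number of chosen sites followed the threshold. It was 73 with at least 2 tags in both libraries 3 and 4, 550 where 1 tag in library 1 or 2 was allowed, and 413 to 1905 with 1 library left out, by construction, since fewer libraries then had to have or lack a tag. Their share of library 3 was 6.83% with at least 2 tags, 6.89% without 7SL-like sites and 15.4% to 43% with another library left out. The same shares of library 4 were 8.33%, 6.28% and 16.1% to 35.9%. With 1 library left out, the difference from the mirror set ranged from -23.1 to -2.62 points for the signal, from -26.5 to 5.21 for the 3′UTR, from -32.5 to 4.21 for the transcript end and from -11.2 to 16.5 for names with tags elsewhere. Without 7SL-like sites it was -4.01 points for the signal and -4.63 for the 3′UTR, both past the threshold no more. With at least 2 tags it was -45.7, -59.3 and -56.7 points for the signal, the 3′UTR and the transcript end, and 12.8 for names with tags elsewhere. The signal difference was -8.15 points upstream only and 0.0592 points among 3′UTR sites only, and the difference in names with tags elsewhere was -3.61 with vM21 names. There were 62 to 118 7SL-like sites among the chosen ones with 1 library left out, 54 at 7 edits and 67 at 9. The alternatives not given here or in the text kept the direction and the call of the reported value, or stayed within 1.5 times a count. No paired analysis was possible because the labels give 1 group. Depth is a limit, since 158 of the 323 sites rest on 1 tag in each library.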
